A study of Homo sapiens with 6 samples.

Results

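MZT1 and its partners in the gamma-tubulin ring complex were examined in HCT116, a cell line established from a human colorectal carcinoma, with and without overexpression of the H/ACA small nucleolar RNA SNORA28. The 10 genes were MZT1, MZT2A, MZT2B, TUBG1, TUBGCP2, TUBGCP3, TUBGCP4, TUBGCP5, TUBGCP6 and NEDD1, out of 60612 genes listed. MZT1 was taken because it was among the largest rises in the comparison of the 2 groups, and the other 9 because they are subunits or adaptors of the same complex. The rise of MZT1 is therefore described without a test. Its partners, chosen for their part in the complex but with earlier results of these data known, were read from a test across all genes.

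Poly(A) RNA was sequenced 72 h after infection, in 3 libraries of cells given the negative control virus (LV-NC) and in 3 of cells given the virus that overexpresses SNORA28 (LV-SNORA28). Both groups are HCT116 cells that received a lentivirus, and no uninfected cells are among the samples. The comparison asks which transcripts differ when SNORA28 is overexpressed. Expression was given as FPKM, a fragment count divided by the length of the transcript and by the size of the library. No source states that the 3 libraries of a group came from separate cultures, so p-values measure the spread between these libraries, which may be technical.

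Microtubules are hollow polymers of alpha- and beta-tubulin, and the gamma-tubulin ring complex is the template from which most of them start. Gamma-tubulin (TUBG1) is held in a ring by the gamma-tubulin complex proteins (TUBGCP2 to TUBGCP6). The small MOZART proteins (MZT1, MZT2A, MZT2B) bind the ends of these proteins, and MZT1 is known for its part in bringing the ring to centrosomes. NEDD1 is the adaptor that anchors the ring at the centrosome and along spindle microtubules, where dividing cells need it most.

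In the series as a whole, SNORA28 itself had 0.92, 0 and 0.64 FPKM with LV-NC, against 15.01, 13.66 and 15.2 FPKM with LV-SNORA28, which fits their labels. Its host gene EIF5 had a log2 fold change of 0.43 (limma adjusted p = 0.30), which became 0.71 (limma adjusted p = 0.0417) without LV-NC replicate 1 and 0.25 (0.565) without LV-NC replicate 2. Transcripts of the mitochondrial genome took from 42.7% to 47.7% of all FPKM with LV-NC and from 35.9% to 38.3% in LV-SNORA28 (exact two-sided permutation p = 0.1, the smallest that 3 against 3 libraries allow). FPKM is relative to the library, and the part of this share in the values of other genes was not tested beyond a fit scaled to the sum outside the mitochondrial genome, where MZT1 had 1.70. The median log2 fold change of the 12076 genes tested was 0.09, and each change is to be read against it. Of 10 markers of colorectal epithelium, 5 (EPCAM, KRT8, KRT18, CDH1 and CDX2) were at 1 FPKM or above in all 6 libraries. CDX1 and CEACAM5 were at 0 in all of them, and VIL1, KRT20 and LGALS4 were below 1 FPKM. Of 6 fibroblast markers, COL1A1 was above 1 FPKM in all 6 libraries and 3 (COL1A2, DCN and LUM) were at 0 in all, with sums from 3.23 to 4.52 FPKM in LV-NC and from 3.22 to 4.17 FPKM in LV-SNORA28. Of 6 leukocyte markers 0 reached 1 FPKM in all libraries. Their sum, mostly CD68, was from 1.1 to 2.4 FPKM in LV-NC and from 2.46 to 4.14 FPKM in LV-SNORA28, without overlap, while the defining marker PTPRC was at or below 0.08 FPKM. The sum of 4 endothelial markers was from 0.05 to 0.1 FPKM in LV-NC and from 0.11 to 0.16 FPKM in LV-SNORA28. The part of these markers in the results was not tested.

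MZT1 (ENSG00000204899) lies on the minus strand of chromosome 13 (GRCh38, 72708367 to 72727629), and BORA starts on the other side of it, reading away. BORA encodes an activator of the mitotic kinase Aurora A. The first annotated base of BORA is separated from MZT1 by 119 bases, and the starts of the canonical transcripts are 294 bases apart, so their promoter windows overlap. The stretch between the genes as annotated is shown, followed by 2 short stretches farther from MZT1. These 2 hold matches to the cell cycle genes homology region, an element known from promoters of genes expressed in G2 and mitosis. All the matches shown lie in the promoter windows of both MZT1 and BORA. Sequences are from RefSeq (GRCh38.p14), written on the strand of MZT1, with the matched letters in capitals. They are GGGCGG, the GC box, in the first stretch. In the second they are the reverse complement of TTTGAA, since the match is on the other strand. In the third they are TTCGAA, a variant of that element which reads the same on both strands. The first covers chr13:72727630-72727748, the second chr13:72727734-72727763 and the third chr13:72727787-72727816, and the first and second overlap.
Between MZT1 and BORA: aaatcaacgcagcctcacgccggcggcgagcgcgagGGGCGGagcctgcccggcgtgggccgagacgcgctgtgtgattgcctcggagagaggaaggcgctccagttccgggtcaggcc
TTTGAA match: cgtggctccaaaTTCAAAtcaacgcagcct
TTCGAA match: ccgcgtaggaaaTTCGAAtggcaactcctc

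Promoter windows of 300 bases were given for 9 of the 10 genes, TUBGCP4 being the exception, and were searched on both strands. TTTGAA was found for MZT1 alone among the 9, at position -122 from its start, against 15.2% of 35116 windows of all genes. TTCGAA was likewise found for MZT1 alone, at position -175, against 1.45% of all windows. CCAAT stood in the windows of 5 of the 9 (MZT1, MZT2A, MZT2B, TUBG1 and TUBGCP5), against 34.6% of all windows, and MZT1 had it at positions -234 and -202. GGGCGG stood in 7 of the 9, against 45% of all windows. A gene counted if any of its windows matched, and TUBGCP2 and NEDD1 had matches in different windows. The shares of all windows are per window, so the measures are not alike. The window of BORA overlaps that of MZT1 and holds all these matches too. The first 3 motifs named, without GGGCGG, occurred together in 0.12% of all windows, those of MZT1 and BORA among them. This share is a description and no test. These are matches of letters, and binding was not measured.

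By mean FPKM, MZT1 rose from the lowest level of the 10 genes to the third highest. It was at 1.85, 2.5 and 2.49 FPKM across LV-NC and at 8.51, 10.72 and 10.27 FPKM across LV-SNORA28. All 3 LV-SNORA28 libraries lay far above all 3 LV-NC libraries, and within each group the libraries lay close together. The means were 2.28 ± 0.372 FPKM (SD, n = 3) and 9.83 ± 1.17 FPKM (SD, n = 3), a ratio of 4.31. On the log2(FPKM + 1) scale, on which changes of low genes come out too small, the difference was 1.72 with an SE of 0.12. It was rank 8 of 12076 genes from the top, and since MZT1 was chosen by this value, the rank restates the choice. Over all alternative fits the value ran from 1.49, with trends of GC content and length removed, to 2.07, with a smaller pseudocount. With 1 library left out it ran from 1.63 to 1.82.

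**Figure D1:**
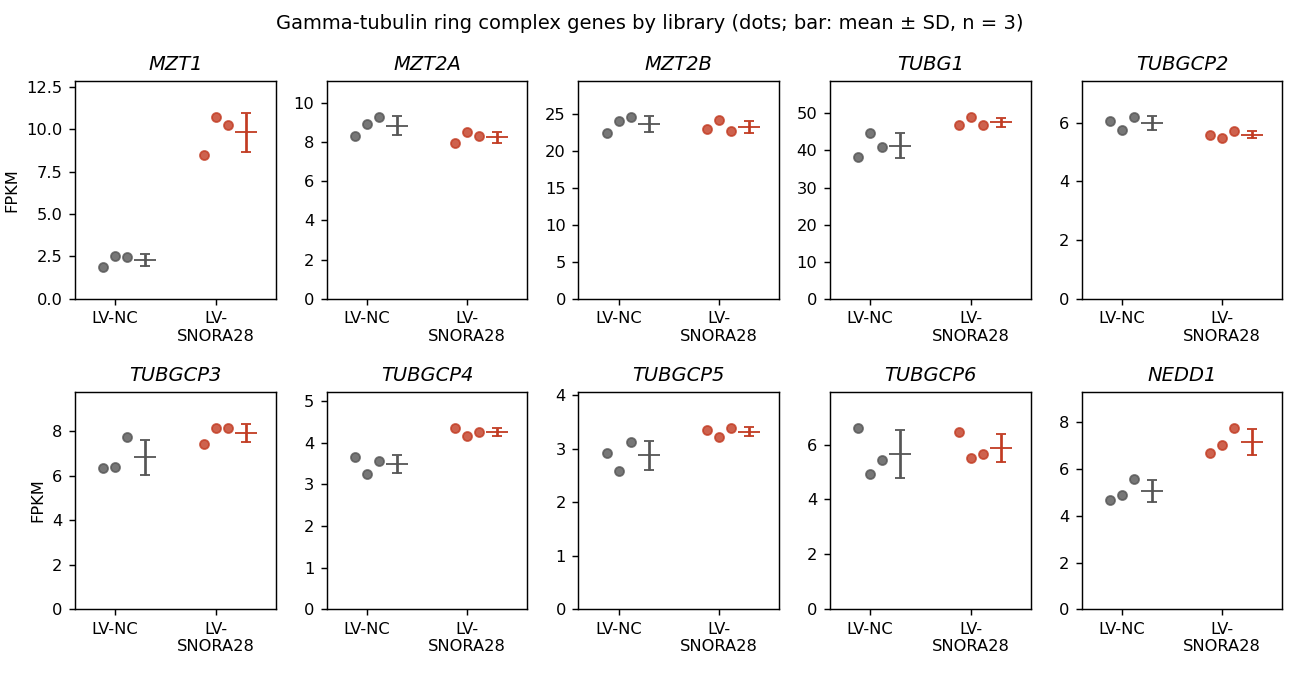
FPKM of each of the 10 genes in every library (dots) with the group mean and SD (bar, n = 3); each vertical axis starts at 0. MZT1 moves from 1.85 to 2.5 FPKM in LV-NC to 8.51 to 10.72 FPKM in LV-SNORA28, while among its partners NEDD1 alone passed the test.

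The gene body of MZT1 overlaps no other annotated gene on either strand. It has 2 annotated processed pseudogenes. MZT1P1, on chromosome 1, was listed at 0.09 FPKM in LV-SNORA28 replicate 1 and at 0 in the other libraries, and MZT1P2, on chromosome 7, named after its values were seen, was at 0 in all 6. No window of 150 bases, the read length, of the MZT1 transcript was found unchanged in either. The canonical transcript has 2231 bases and a GC content of 31%, and 9 of the genes tested had a lower one. GC content moved with the fold changes at large, since the median log2 fold change was 0.17 in the 1206 genes lowest in GC and 0.01 in the 1206 highest. Among the 22 genes within 2 percentage points of the GC content of MZT1, the median log2 fold change was 0.21 and the highest 0.43. MZT1 was chosen for its rise, so these values are no test of it, and the part of GC content in that rise was not tested beyond the fit with the trends removed.

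The other MOZART proteins did not follow MZT1. MZT2B was at 22.44, 24.05 and 24.59 FPKM across LV-NC and at 22.97, 24.2 and 22.71 FPKM across LV-SNORA28. The groups overlapped, and the log2 fold change was -0.02 (95% interval -0.17 to 0.13, limma adjusted p = 0.844). MZT2A had 8.32, 8.91 and 9.26 FPKM in LV-NC against 7.94, 8.49 and 8.3 FPKM in LV-SNORA28. Its groups overlapped too, with a log2 fold change of -0.09 (95% interval -0.25 to 0.07, limma adjusted p = 0.437). Neither interval reaches 0.2 in the upward direction. MZT2A and MZT2B are near-identical copies on chromosome 2, with 97.3% identity over 599 transcript bases, and 50.1% of windows of 31 bases are shared, so the division of reads between them is uncertain.

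Gamma-tubulin had the highest FPKM of the members. TUBG1 (ENSG00000131462, chromosome 17, 42609641 to 42615238) was at 38.19, 44.83 and 40.84 FPKM across LV-NC and at 46.95, 48.94 and 46.86 FPKM across LV-SNORA28. All 3 LV-SNORA28 libraries lay above the LV-NC libraries, but the log2 fold change of 0.20 (95% interval 0.03 to 0.38) did not pass over all genes, with a limma adjusted p of 0.127. Its paralog TUBG2 was between 8.52 and 10.88 FPKM with overlapping groups (log2 fold change -0.08, limma adjusted p = 0.574). The TUBG1 and TUBG2 transcripts have 89.8% identity where they align. TUBG1 shares 6.24% of windows of the read length with TUBG2, against 5.78% for MZT2A with MZT2B, and 36.6% of windows of 31 bases. The division of reads between TUBG1 and TUBG2 is therefore uncertain too. The pseudogene TUBG1P stayed at or below 0.03 FPKM.

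The complex proteins that hold gamma-tubulin were split in direction, and none of the 5 passed the test. TUBGCP2 and TUBGCP3 form the basic unit of the ring together with gamma-tubulin. TUBGCP3 had 6.35, 6.39 and 7.75 FPKM in LV-NC and 7.45, 8.14 and 8.15 FPKM in LV-SNORA28, with overlapping groups and a log2 fold change of 0.19 (95% interval -0.03 to 0.41, limma adjusted p = 0.227). TUBGCP2 had 6.05, 5.74 and 6.18 FPKM in LV-NC and 5.59, 5.47 and 5.7 FPKM in LV-SNORA28. Here the LV-SNORA28 libraries were the lower ones without overlap, at a log2 fold change of -0.09 (95% interval -0.24 to 0.06, limma adjusted p = 0.424).

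TUBGCP4, TUBGCP5 and TUBGCP6 occupy particular places in the ring. TUBGCP4 was at 3.66, 3.24 and 3.55 FPKM across LV-NC and at 4.35, 4.16 and 4.25 FPKM across LV-SNORA28, with no overlap, a log2 fold change of 0.23 (95% interval 0.06 to 0.40) and a limma adjusted p of 0.0926. TUBGCP5 was at 2.92, 2.58 and 3.13 FPKM against 3.35, 3.23 and 3.39 FPKM, again with no overlap, at 0.16 on the log2 scale (95% interval -0.03 to 0.35, limma adjusted p = 0.251). TUBGCP6 was at 6.6, 4.91 and 5.44 FPKM against 6.46, 5.51 and 5.64 FPKM. Its groups overlapped, and its log2 fold change of 0.05 (95% interval -0.22 to 0.32, limma adjusted p = 0.802) turned to -0.05 under quantile normalization. TUBG1, TUBGCP2, TUBGCP4, MZT2A and MZT2B overlap protein-coding genes on the opposite strand, and whether the counting used strand is not given in the sources used here.

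NEDD1 was the partner that rose. It was at 4.68, 4.91 and 5.6 FPKM across LV-NC and at 6.69, 7.03 and 7.76 FPKM across LV-SNORA28, and the groups did not overlap. The means were 5.06 ± 0.479 FPKM (SD, n = 3) and 7.16 ± 0.547 FPKM (SD, n = 3), a ratio of 1.41, and the log2 fold change was 0.43 (SE 0.09) with a limma adjusted p of 0.0354. Its transcript, like that of MZT1, is low in GC (35.3%). With trends of GC content and length removed, its log2 fold change was 0.24 with a limma adjusted p of 0.109, and with quantile normalization it was 0.33 with 0.0798. Leaving out LV-NC replicate 1 or 2 gave limma adjusted p-values of 0.0767 and 0.0906, and leaving out LV-SNORA28 replicate 1, 2 or 3 gave 0.0675, 0.105 and 0.114. The rise of NEDD1 is thus near the threshold, in the same direction in every fit.

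**Figure D2:**
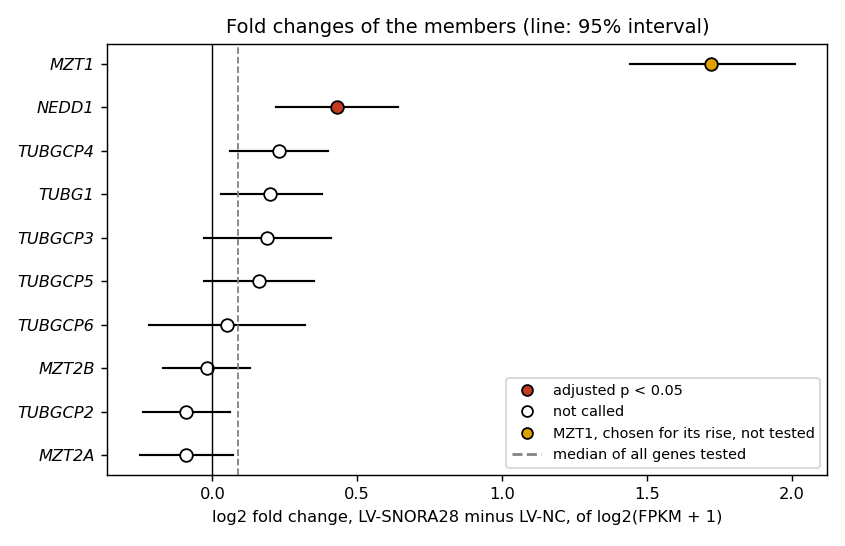
Log2 fold change of each gene, LV-SNORA28 minus LV-NC, on the log2(FPKM + 1) scale, with its 95% interval; the dashed line is the median of all genes tested (0.09). MZT1 stands at 1.72, NEDD1 at 0.43, and the intervals of the other 8 lie at or below 0.41.

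In all, 1 of the 9 partners passed at an adjusted p below 0.05, against 8.91% of the 12076 genes tested (6.81% higher and 2.10% lower). With so few genes this is close to the background. The groups did not overlap for 5 of the 9, against 35.1% of all genes tested, and 4 of the 9 were higher in LV-SNORA28 without overlap, against 27.0% of all genes tested. The median log2 fold change of the partners was 0.16, against 0.09 for all genes tested, with 6 above 0 and 3 below, and TUBGCP6 joined the latter under quantile normalization. None of the 9 met the threshold of the study, a fold change above 1.5 with an unadjusted p below 0.05 in limma, which 3.79% of genes tested met. For this threshold the fold change was taken on the log2(FPKM + 1) scale, on which changes of low genes come out too small.

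FPKM is given per length, and the levels of the genes are set side by side on it. It takes no account of GC content (31% for MZT1, 66.8% for MZT2A) or of reads shared between copies. The order below is therefore that of the FPKM values alone. In LV-NC the order of mean levels was TUBG1, MZT2B, MZT2A, TUBGCP3, TUBGCP2, TUBGCP6, NEDD1, TUBGCP4, TUBGCP5 and MZT1. The ranges of TUBGCP2 and TUBGCP6 overlapped, as did those of TUBGCP6 and NEDD1, and the ranges of the other neighbours did not. In LV-SNORA28 it was TUBG1, MZT2B, MZT1, MZT2A, TUBGCP3, NEDD1, TUBGCP6, TUBGCP2, TUBGCP4 and TUBGCP5. There the ranges overlapped between MZT2A and TUBGCP3, between TUBGCP3 and NEDD1, and between TUBGCP6 and TUBGCP2. MZT1 and MZT2A were separated by the narrow gap from 8.49 to 8.51 FPKM.

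The level of MZT1 relative to its partners within a library does not depend on the scaling between libraries. MZT1 made up 1.83%, 2.31% and 2.29% of the summed FPKM of the 10 genes in LV-NC and 7.08%, 8.51% and 8.35% in LV-SNORA28. The summed FPKM of the 9 partners was 104 ± 3.91 (SD, n = 3) for LV-NC and 113 ± 1.76 (SD, n = 3) for LV-SNORA28. Per unit of TUBG1, MZT1 was at 0.0551 ± 0.00629 (SD, n = 3) in LV-NC and at 0.206 ± 0.0219 (SD, n = 3) in LV-SNORA28. MZT1 was below TUBGCP3 in all 3 LV-NC libraries (ratios from 0.291 to 0.391) and above it in all 3 LV-SNORA28 libraries (1.14 to 1.32). These ratios are of transcripts, and protein was not measured in these files.

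**Figure D3:**
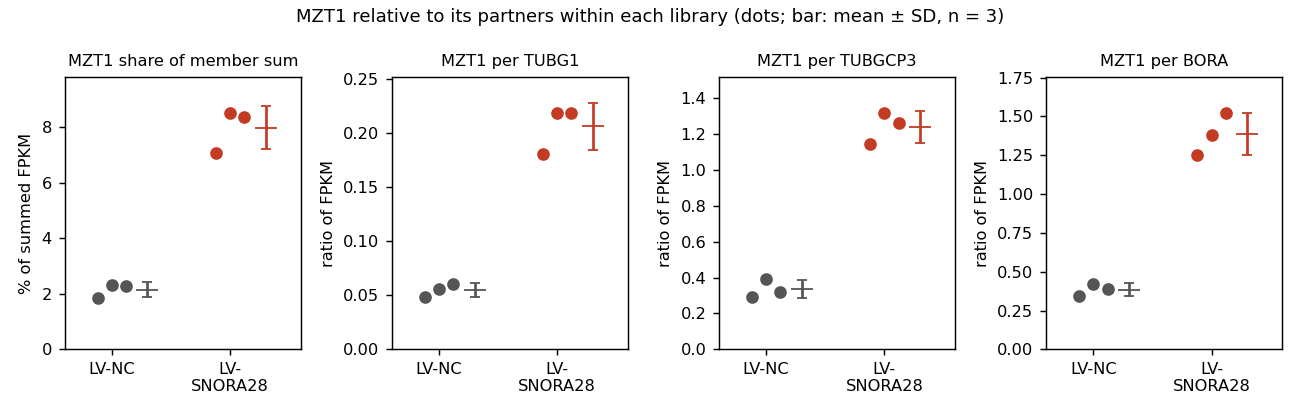
MZT1 as a percentage of the summed FPKM of the 10 genes, and as a ratio to TUBG1, TUBGCP3 and BORA, in every library (dots) with the group mean and SD (bar, n = 3). The LV-NC share lies between 1.83% and 2.31% and the LV-SNORA28 share between 7.08% and 8.51%, and the ratios to TUBGCP3 and BORA pass from below 1 to above 1.

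The genes beside MZT1 on chromosome 13 moved much less than MZT1. BORA, whose promoter window overlaps that of MZT1, was at 5.42, 5.92 and 6.37 FPKM across LV-NC and at 6.81, 7.75 and 6.74 FPKM across LV-SNORA28. No values overlapped between groups, yet the log2 fold change of 0.23 (95% interval 0.03 to 0.43) did not pass, with a limma adjusted p of 0.137, and it was 0.04 with GC and length trends removed. The ratio of MZT1 to BORA went from 0.385 ± 0.0408 (SD, n = 3) to 1.39 ± 0.137 (SD, n = 3).

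Of the 6 protein-coding genes with sequence within 1 Mb of MZT1, 5 were tested and 2 of these were higher at an adjusted p below 0.05, against 6.81% of genes tested. PIBF1, a protein of centriolar satellites, was at 3.19, 2.93 and 2.99 FPKM across LV-NC and at 4.2, 4.95 and 4.85 FPKM across LV-SNORA28 (log2 fold change 0.49, limma adjusted p = 0.0196). KLF5, a transcription factor of intestinal epithelium, was at 14.2, 13.18 and 13.85 FPKM against 17.96, 18.22 and 18.32 FPKM (0.38, limma adjusted p = 0.0154). Both had groups without overlap. DIS3, the catalytic subunit of the RNA exosome, had overlapping groups (0.09, limma adjusted p = 0.594), although its start lies 37 bases from that of PIBF1. KLF12, another factor of the same family, had 0.29 with a limma adjusted p of 0.17, and DACH1 was at or below 0.02 FPKM in all libraries.

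The calls of PIBF1 and KLF5 were lost in some of the fits with 1 library left out. Their log2 fold changes in these fits ran from 0.451 to 0.548 and from 0.351 to 0.401. The adjusted p of PIBF1 was 0.079 without LV-SNORA28 replicate 2, 0.0796 without replicate 3, 0.0568 without LV-NC replicate 2 and 0.0629 without LV-NC replicate 3 in limma. That of KLF5 was 0.0681 without LV-SNORA28 replicate 2 and 0.0661 without replicate 3. BORA and DIS3 overlap by 4030 bases on opposite strands, so part of their reads may be shared.

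**Figure D4:**
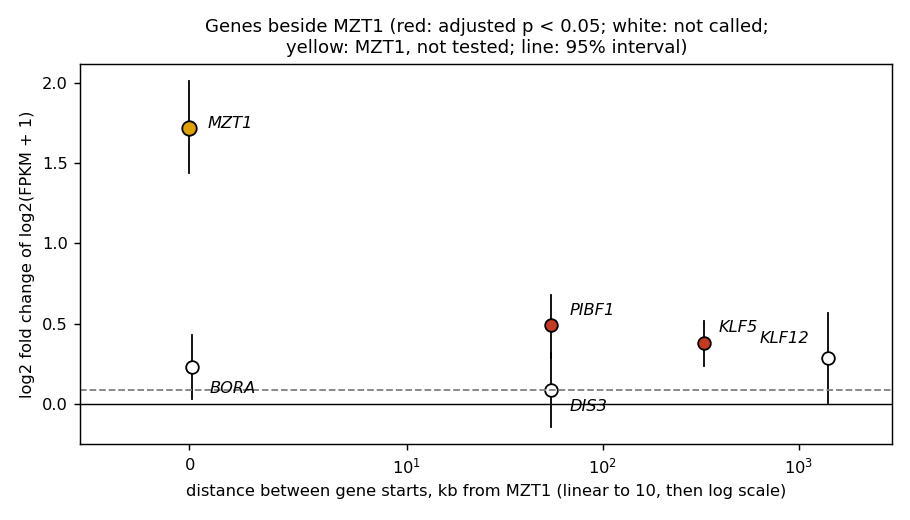
Log2 fold change with its 95% interval, on the log2(FPKM + 1) scale, of the tested genes beside MZT1 against the distance between gene starts in kb (linear up to 10 kb, then a log scale); the dashed line is the median of all genes tested (0.09). MZT1 stands at 1.72, BORA beside it at 0.23, and PIBF1 and KLF5, which passed the test, at 0.49 and 0.38.

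The wider pathway was then followed through 7 lists of genes, compiled from general knowledge but with earlier results of these data known. The proteins that recruit the ring to the pericentriolar material showed no called change. Of 13 such genes 12 were tested, and 0 passed in limma, with 2 at an unadjusted p below 0.05 and a median log2 fold change of 0.13. The largest differences were those of CEP68 (0.30, limma adjusted p = 0.0783) and CEP170 (0.24, limma adjusted p = 0.296), both centrosomal proteins. In the augmin complex, which carries the ring to spindle microtubules, 1 of 8 genes rose, which is near the 8.91% of all genes called. This was HAUS6, the subunit that contacts NEDD1, which was at 4.93, 4.65 and 5.59 FPKM across LV-NC and at 6.5, 7.05 and 7.38 FPKM across LV-SNORA28 (log2 fold change 0.40, limma adjusted p = 0.0386). The call of HAUS6 was lost whichever library was left out, with limma adjusted p-values from 0.0516 to 0.126 and log2 fold changes from 0.35 to 0.461. HAUS1 had 0.37 (limma adjusted p = 0.085). HAUS2 was uneven within both groups, from 1.39 to 5.77 FPKM in LV-NC and from 1.3 to 3.07 FPKM in LV-SNORA28 (-0.46, limma adjusted p = 0.536).

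Of 12 kinases and activators of spindle assembly, 5 (41.7%) rose and 0 fell, against 8.91% of all genes called, and the median log2 fold change was 0.27. This count was 1 without any single LV-NC replicate, 3 without LV-SNORA28 replicate 1, and 0 without LV-SNORA28 replicate 2 or 3, without a filter or at the threshold of the study. Calls over all genes tested also fell, from 1076 to between 278 and 629 with 1 library left out. They were 397 of 32761 genes without a filter, and 3.79% of genes tested met the threshold of the study. On the log2(FPKM + 1) scale of that threshold NEK9 stayed below it, although its ratio of means was 1.51. The 5 genes were NEK9 (0.51, limma adjusted p = 0.0218), a kinase upstream of NEK6 and NEK7, CDK1 (0.50, limma adjusted p = 0.0396), the main mitotic kinase, NEK2 (0.48, limma adjusted p = 0.0188), which acts in centrosome separation, AURKA (0.48, limma adjusted p = 0.0247), the kinase that BORA activates, and TACC3 (0.28, limma adjusted p = 0.0478), an Aurora A substrate on the spindle. AURKA was at 16.18, 16.39 and 18.64 FPKM across LV-NC and at 22.02, 25.57 and 25.2 FPKM across LV-SNORA28. NEK7 (0.27, limma adjusted p = 0.152) and TPX2 (0.27, limma adjusted p = 0.0845), the targeting factor of Aurora A, did not pass. TACC3 lost its call in all 6 fits with 1 library left out. CDK1 and NEK2 kept theirs without LV-SNORA28 replicate 1 alone, AURKA without LV-SNORA28 replicate 1 or LV-NC replicate 3, and NEK9 without LV-NC replicate 1 or 2.

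Among 15 genes of centriole assembly, 1 (6.67%) rose, against 8.91% of all genes called, so the list does not stand above the background. The gene was the centriole protein POC1A. It was at 9.44, 9.74 and 9.03 FPKM across LV-NC and at 14.88, 14.72 and 13.58 FPKM across LV-SNORA28 (log2 fold change 0.56, limma adjusted p = 0.00777). The call of POC1A held in every fit with 1 library left out. STIL (0.46, limma adjusted p = 0.145) and PLK4 (0.30, limma adjusted p = 0.0638), the factor and the kinase that start centriole duplication, did not pass. Without LV-NC replicate 3, STIL had 0.66 (limma adjusted p = 0.0273).

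The other tubulins showed no called change. The list held the alpha- and beta-tubulins, which form the polymer itself, and also TUBG2, TUBD1 and TUBE1, which are neither. Of 14 genes 0 passed in limma, with 2 (TUBB4A and TUBD1) at an unadjusted p below 0.05. The median log2 fold change of the whole list was 0.12. TUBB3 was at 23.55, 4.85 and 11.77 FPKM across LV-NC and at 18.05, 30.25 and 16.27 FPKM across LV-SNORA28 (log2 fold change 0.83, limma adjusted p = 0.343), and TUBB6 was at 6.05, 21.36 and 4.67 FPKM against 6.87, 6.63 and 5.51 FPKM (-0.40, limma adjusted p = 0.64). LV-NC replicate 2 was the lowest library for TUBB3 and the highest for TUBB6, and without it the values were 0.30 and 0.21. Of 20 genes that fold tubulin, 4 rose and 0 fell, against 8.91% of all genes called, namely the chaperonin subunits CCT6A (0.50, limma adjusted p = 0.0132) and TCP1 (0.32, limma adjusted p = 0.0356), the tubulin cofactor TBCD (0.43, limma adjusted p = 0.0188) and the prefoldin subunit VBP1 (0.36, limma adjusted p = 0.0418). CCT4 (0.36, limma adjusted p = 0.12) and PFDN6 (-0.30, limma adjusted p = 0.0593) did not pass. PFDN6 passed as lower with quantile normalization (limma adjusted p = 0.0433), scaling to the sum outside the mitochondrial genome (0.0474), a mean of at least 5 FPKM (0.0442) and GC and length trends removed (0.0492). The calls of the list were from 1 to 2 without any single LV-NC replicate, 2 without LV-SNORA28 replicate 1 and 0 without LV-SNORA28 replicate 2 or 3. In these fits the calls over all genes tested also fell, from 1076 to between 278 and 629.

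Genes of G2 and mitosis, the phases in which dividing cells build the spindle, are given beside the above. Of 25 genes, 10 (40%) rose, 0 fell and 15 did not pass, against 8.91% of all genes called, and the median log2 fold change was 0.32. The count was 4, 5 and 7 without LV-NC replicates 1, 2 and 3 in turn, 6, 2 and 3 without LV-SNORA28 replicates 1, 2 and 3, and 3 at the threshold of the study. Calls over all genes tested also fell, from 1076 to between 278 and 629 with 1 library left out, and 3.79% met the threshold of the study. The 5 with the largest change were PRC1 (0.99, limma adjusted p = 0.0292), which bundles microtubules of the midzone, TOP2A (0.65, limma adjusted p = 0.0127), the topoisomerase of dividing cells, CKS2 (0.53, limma adjusted p = 0.00696), a partner of cyclin-dependent kinases, CCNB1 (0.52, limma adjusted p = 0.0128), cyclin B, and ECT2 (0.48, limma adjusted p = 0.0114), which starts cytokinesis. CCNB1 was at 45.9, 53.9 and 53.15 FPKM across LV-NC and at 73.08, 74.28 and 73.22 FPKM across LV-SNORA28. NUSAP1 (0.79, limma adjusted p = 0.123) and CDC20 (0.35, limma adjusted p = 0.084) did not pass. CKS2 and TOP2A kept their calls in all 6 fits with 1 library left out. ECT2 lost its call without LV-SNORA28 replicate 2, CCNB1 without LV-SNORA28 replicate 2 or 3, and PRC1 without LV-NC replicate 1 or any single LV-SNORA28 replicate. Whether the share of cells in mitosis had a part in the values of the complex was not tested, and in bulk RNA a larger share of dividing cells and more RNA per cell cannot be told apart.

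Of the 106 genes tested in the 7 lists together, 21 were called, all higher in LV-SNORA28 in this fit, against 8.91% of all genes called. Without LV-NC replicates 1, 2 and 3 in turn, 8, 8 and 12 were called, and without LV-SNORA28 replicates 1, 2 and 3, 12, 3 and 4. Over all genes tested the calls fell as well, from 1076 to 629, 489 and 448 without LV-NC replicates 1, 2 and 3. They fell to 450, 278 and 303 without LV-SNORA28 replicates 1, 2 and 3, so 8.91% is not the background of these fits. With GC and length trends removed there were 13 higher and 1 lower, and the lower gene was PFDN6.

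**Figure D5:**
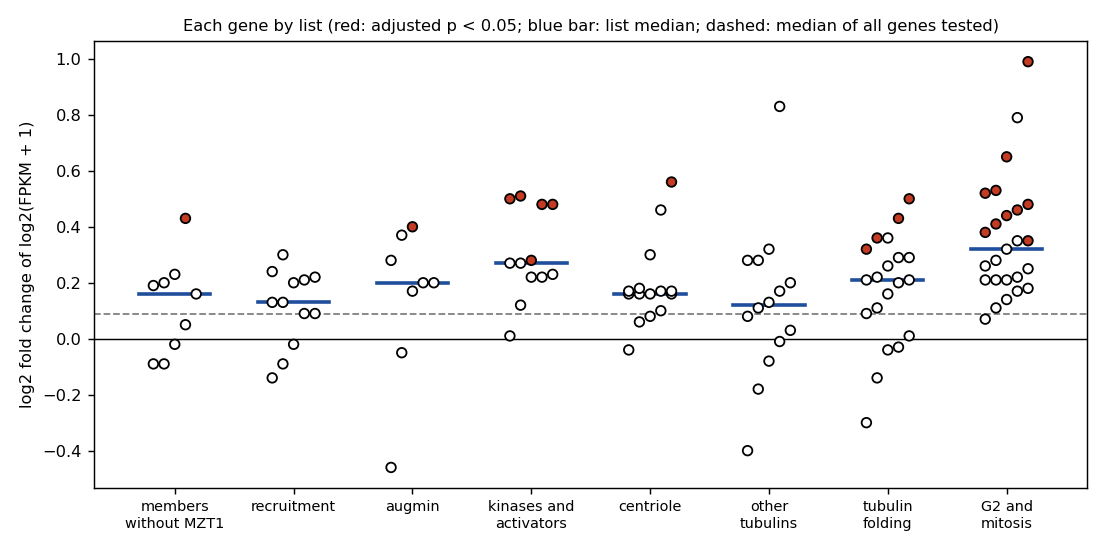
Log2 fold change, on the log2(FPKM + 1) scale, of every tested gene in the 9 partners of MZT1 and in the 7 lists; red dots passed at an adjusted p below 0.05, blue bars are list medians and the dashed line is the median of all genes tested (0.09). List medians run from 0.12 for the other tubulins to 0.32 for G2 and mitosis, and MZT1, at 1.72, is off this scale and not drawn.

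The genes with a pattern over the 6 libraries most like that of MZT1, by Pearson correlation of log2(FPKM + 1), were AP3S1, a subunit of the AP-3 vesicle adaptor (r = 0.999), TPM2, a tropomyosin (0.999), MRPL33, a mitochondrial ribosomal protein (0.999), KIF2C, a mitotic kinesin that shortens microtubules (0.998), and EIF2S2, a subunit of the translation initiation factor eIF2 (0.998). With 2 groups of 3 libraries such values mostly rank genes by the same group difference, and they are given without a p. AP3S1 was at 50.43, 56.17 and 54.91 FPKM across LV-NC and at 105.8, 124.5 and 118.9 FPKM across LV-SNORA28. MRPL33 was at 5.97, 7.01 and 6.65 FPKM against 16.37, 18.52 and 19.1 FPKM, the largest ratio of the 5 at 2.75. In both genes, as in MZT1, replicate 1 was the lowest library of each group. Of the members, NEDD1 was the most like MZT1 (r = 0.956), at rank 467 of the genes tested. TUBGCP4 (0.885, rank 1478) and TUBG1 (0.879, rank 1548) followed. The r was negative for TUBGCP2 (-0.822), MZT2A (-0.564) and MZT2B (-0.12), none of which passed the test.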

How the data were processed

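The authors deposited 1 table per library with Ensembl gene identifiers and FPKM values, rounded to at most 2 decimals. The submitters' processing notes list hg38, cutadapt 1.9, HISAT2 2.2.1, StringTie 2.1.6, DESeq2 and edgeR. The annotation release, filters and mapped totals are not given in the sources used here. Depth is unknown. A set of 4842 single-exon genes gave from 585 to 696 low values per library. Of those used, between 28.7% and 36.8% were within 0.1 of a multiple of the best step. The share by chance is 20% for a fixed step and was not measured for the best of many. No reads were recovered and no counting interval is given.

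Groups came from sample titles. Symbols were found in GENCODE release 44 (GRCh38) for 60401 of 60612 genes. Values were taken as log2(FPKM + 1). Genes averaging 1 FPKM or more over the libraries (12076) were fitted with limma 3.58.1 in R 4.3.3 (lmFit, eBayes with a trend). P-values were two-sided, adjusted by the Benjamini-Hochberg method over all genes tested, and called below 0.05. The fit was tested on simulated data with independent normal errors and levels set above the real ones. That test checks the code and not the calls made here. Summaries and exact permutation tests were run in Python 3.11.15.

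The genes, lists, tests and alternatives were chosen with earlier results of these data known. The lists were compiled from general knowledge. Of each list the text names up to 5 called genes and 2 others, those with the largest change, besides the 10 genes, their annotated copies, the coding genes within 1 Mb of MZT1, and the 5 genes most like it.

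Alternatives were quantile normalization, a fit with no trend, scaling to the FPKM sum outside the mitochondrial genome, no filter, a mean of at least 5 FPKM, a pseudocount of 0.1, removal of GC and length trends from each library, the replicate number as a block, the threshold of the study and each library left out.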

Additional observations from a re-analysis of the deposited data

How the results depend on the processing

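Alternatives that need counts were not run, since the files hold FPKM only, and since depth is unknown the precision of values near 1 FPKM cannot be stated. Over all genes tested, 1076 passed, and this became 397 without a filter, 510 with the replicate block, 458 at the threshold of the study and from 278 to 629 with 1 library left out. The calls, 822 higher and 254 lower, were 451 higher and 375 lower with quantile normalization. Of the 9 partners, 1 passed, and 0 did with quantile normalization, without a filter, with GC and length trends removed or at the threshold of the study, and from 0 to 1 with 1 library left out. That gene, NEDD1, had log2 fold changes of 0.333, 0.429 and 0.24 at limma adjusted p-values of 0.0798, 0.0866 and 0.109 in the first 3 of these fits, and from 0.377 to 0.492 with 1 library left out. The 21 called genes of the 7 lists became 7 without a filter, 3 at the threshold of the study and from 3 to 12 with 1 library left out. The 2 neighbours called became 1 without a filter, 1 with a mean of at least 5 FPKM (PIBF1 is then not tested) and 1 with the replicate block. They became 0 at the threshold of the study, taken on the log2(FPKM + 1) scale, although the ratio of means was 1.54 for PIBF1 (1.32 for KLF5). With 1 library left out, from 0 to 2 were called. The cause of these changes in calls was not tested.

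MZT1 had 2.07 with a pseudocount of 0.1, which enlarges changes of low genes by construction, and 1.49 with GC and length trends removed. The sign turned for 4 named genes. MZT2B was at 0.032 with the trends removed and from -0.06 to 0.003 with 1 library left out, TUBGCP6 at -0.051 with quantile normalization and from -0.029 to 0.153 with 1 library left out, DIS3 at -0.006 with quantile normalization and -0.065 with the trends removed, and TUBB6 at 0.21 without LV-NC replicate 2 (from -0.78 to 0.21 with 1 library left out). Shared replicate numbers marked no pairs: over genes, the deviations of same-numbered libraries had r of -0.04, 0.09 and 0.00983 for numbers 1 to 3. With the replicate block, NEDD1 had a limma adjusted p of 0.0453 and PIBF1 one of 0.0626. HAUS1 passed with it (0.0478) and HAUS6 did not (0.061), and the mitosis list had 5 calls in place of 10.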
